A study of Mus musculus with 40 samples.

Results

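The nuclear genes of the mitochondrial respiratory chain and of the ATP synthase were examined for H3K27ac, the acetylation of lysine 27 of histone H3 that marks active promoters and enhancers. They were taken by symbol from the mouse annotation: protein-coding genes on nuclear chromosomes whose symbol starts with Nduf, Uqcr, Atp5 or Cox4 to Cox8, plus Sdha, Sdhb, Sdhc, Sdhd, Cyc1 and Cycs. This gave 96 entries of 21938 protein-coding genes, under 95 symbols, because Atp5o stands for both the compact gene and a second, much longer entry (ENSMUSG00000116933), called the long Atp5o entry here. The mark was measured by ChIP-seq in primary preadipocytes from the inguinal white fat of C57BL/6 mice that were 8 to 12 weeks old. The cells were wild type (WT) or carried deletions of both Hmgn1 and Hmgn2 (double knockout, DKO), the genes of a pair of proteins that bind nucleosomes. Collection was at day 0, before induction, and at 3, 6 and 9 days of a differentiation into brown-like adipocytes, with 3 libraries in each of the 8 groups. Cells of both genotypes received insulin, dexamethasone, IBMX, T3 and rosiglitazone for 4 days and then insulin with T3. Both deletions are present from the germ line, and the plated stromal cells were not sorted. The study calls its H3K27ac replicates biological. Whether the 3 libraries of a group came from separate mice or separate cultures is not said, and the p-values here measure the spread between these libraries.

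In oxidative phosphorylation, complex I takes electrons from NADH and complex II takes them from succinate. Complex III passes them through cytochrome c to complex IV, which reduces oxygen, and complexes I, III and IV pump protons that drive the ATP synthase. Brown and brown-like adipocytes are rich in mitochondria and can dissipate this proton gradient as heat through the uncoupling protein UCP1. Several complex IV subunits come as a widespread form and a form restricted to some tissues: COX7A1 and COX8B are known from heart, muscle and brown fat, COX6A2 from muscle and brown fat, and COX4I2 from lung and hypoxic cells.

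The deposited data are lists of peaks, one per library, which held between 47448 and 115923 peaks. For each gene, the span from 5 kb upstream to its end was examined, and 3 values were taken per library: whether a peak lay in it, the kb under peaks, and the rank of its best peak when all peaks of the list are ordered by −log10 q, where rank 1 is the strongest. A peak in a span may belong to a neighbouring gene or an element within it. These lists do not give read numbers, so differences in depth could not be corrected. The deleted genes were looked at first: Hmgn2 had a peak in 12 of 12 WT libraries (0.781 to 1.80 kb) and in 0 of 12 DKO libraries, and Hmgn1 had one in all 24 (1.16 to 2.20 kb in the WT libraries, 0.875 to 3.57 kb in those of DKO), which does not check its deletion where the promoter remains. DKO day 0 replicate 2 stood apart with few, wide peaks (60672 peaks of a median of 1076 bp, against 313 to 376 bp in all others). WT day 3 replicate 3 had fewer peaks than the other WT libraries (68629), and the DKO lists of day 6 were short (47448 to 74867 peaks, against 98503 to 105511 in WT). At day 9 the peaks covered 61.2 to 68.8 Mb in DKO and 48.2 to 59.6 Mb in WT, without overlap.

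The cells were checked against marker genes. The summed kb under peaks of 7 adipocyte genes was 10.3 to 12.7 in WT at day 0, 76.9 to 82.4 at day 6 and 52.8 to 62.6 at day 9, and in DKO at day 9 it was 82.9 to 88.4. Adipoq, which encodes the adipocyte hormone adiponectin, had a peak in 12 of 24 libraries, those of days 6 and 9. Ucp1, the defining gene of brown adipocytes, had no peak in any library, and the other 5 brown adipocyte markers each had one in some libraries. The summed kb of the 6 brown adipocyte markers was 1.34 to 1.96 in WT and 1.00 to 3.82 in DKO at day 0, and at day 9 it was 3.95 to 6.12 in WT and 9.65 to 11.6 in DKO, without overlap. Of the 5 with a peak, 4 (Dio2, Elovl3, Ppargc1a and Prdm16) were higher at day 9 than at day 0 by kb in both genotypes. Elovl3, a fatty acid elongase gene, was also higher in DKO than in WT at day 9 (0.476, 0.644 and 0.615 kb in WT and 3.68, 3.33 and 3.72 kb in DKO, a log2 difference of 1.92 ± 0.28, limma, adjusted p = 0.0005). The sum over 6 leukocyte genes was 31.9 to 34.6 in WT at day 0 and 10.1 to 12.8 at day 9, and 38.5 to 75.3 in DKO at day 0 and 17.1 to 20.9 at day 9. The 5 skeletal muscle markers had a peak at no more than 1 gene per library, with Myod1, Myog and Myh4 at 0. Acta1, the skeletal muscle actin gene, had 0.640, 0.531 and 0.512 kb in DKO at day 9 and 0, 0.302 and 0.176 kb in WT, without overlap, and was called higher in DKO (0.71 ± 0.15, limma, adjusted p = 0.0098). The sum over 7 preadipocyte and fibroblast genes was 18.6 to 26.8 in DKO at day 6 and 48.3 to 51.1 in WT. The sum over the 7 adipocyte genes was also lower in DKO at that day, at 47.7 to 73.2 against 76.9 to 82.4. Gene by gene, their median log2 difference in kb was −0.02. By rank of the best peak, 6 of the 7 were stronger in DKO and Pparg was weaker (−0.14). The median log2 difference in rank was 1.08, and limma called 1 of them, Plin1 (1.74 ± 0.42, adjusted p = 0.020). Of the brown adipocyte markers, limma called Cidea (−1.29 ± 0.32, adjusted p = 0.0043) and Dio2 (−0.66 ± 0.21, adjusted p = 0.019) lower in DKO by kb. Elovl3 was called higher there (1.32 ± 0.28, adjusted p = 0.0014), and 39.6% of all tested genes were lower by kb at day 6. These shifts run along the same days and genotypes as the results below, and their part in those results was not tested. In bulk chromatin, a larger share of cells that carry the mark and more mark per cell cannot be told apart.

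The respiratory genes carried H3K27ac throughout. Of the 96 entries, 89 (92.7%) had a peak in 24 of 24 libraries, compared with 50.9% of all protein-coding genes. The 7 exceptions were mostly isoforms restricted to some tissues. Cox8c and Cox7b2, known from testis, had no peak in any library. Cox6b2, also known from testis, had one in 3 libraries, Cox6a2 in 4, Cox4i2 in 6 and Cox8b in 11. Ndufaf6, a complex I assembly factor, had one in 21, and lacked it in WT day 0 replicate 1 and in WT day 3 replicates 1 and 2.

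At most of these genes the strongest peak lay at the promoter. In 79 of the 89 entries, the best peak lay at a median distance of at most 1 kb from the 5′ end of the gene, downstream of it in 68 and upstream in 11. Over the 89, the best peak had a median offset of 213 bp, a median fold enrichment over the local background of 17.4 and a median width of 998 bp. The exceptions included Atp5d, Atp5g2, the long Atp5o entry, Cox7a2l, Cox7b, Ndufa13, Ndufa4l2, Ndufaf2 and Ndufs6. The genes themselves were short, with a median length of 7.33 kb compared with 17.4 kb for all protein-coding genes. A protein-coding gene on the opposite strand started within 1 kb of 35 of the 96 (36.5%), compared with 10.9% of all. Where such a partner exists, a peak between the starts cannot be assigned to one of them.

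Their promoters were rich in CpG. A RefSeq promoter (build GRCm38.p6, 250 bases before to 50 after the start) was matched for 74 of the 96 entries. The median ratio of observed to expected CpG was 0.833, compared with 0.645 over 14598 promoters and 0.744 over the 10746 of genes with a peak in at least 3 libraries, and it exceeded 0.6 in 82.4% compared with 54.0% and 68.0%. The shares below are given first for all promoters and then for those of genes with peaks. Motifs of 5 factors were searched on both strands. CGCATGCG, the letters of a site of NRF1, a regulator of respiratory genes, stood in 10 of 74 (13.5%) compared with 2.92% and 3.76%. AAGGTCA, the core letters of an oestrogen-related receptor (ERR) site, stood in 8 (10.8%) compared with 3.82% and 3.19%, and ATGGCGGC, a YY1 motif, in 7 (9.46%) compared with 3.51% and 4.62%. The ETS motif CCGGAAG stood in 17 (23.0%) compared with 13.2% and 16.9%, and the SP1 motif GGGCGG in 34 (45.9%) compared with 51.5% and 61.9%. The YY1 and SP1 letters can overlap others in CpG-rich sequence, and a match is a description of the sequence and not a site of binding.

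Of these promoters, 7 are shown as examples, with the 250 bases before the RefSeq start in the direction of transcription and any motif match in capitals. They were picked by hand and not by result, so their motifs do not reflect the shares above. Cycs (cytochrome c), Atp5k and Ndufa11 hold the NRF1 letters, Atp5g3 holds the ERR letters on the opposite strand, and the printed bases of Cox8a, Cox7a1 and Cox8b hold none of the 5 motifs. Matches that reach into the 50 bases after the start are counted above but not printed. These are the ETS letters of Cox8a, the ETS and ERR letters of Atp5k and the SP1 letters of Cycs. Over the 250 printed bases, the ratio of observed to expected CpG is 0.905 for Cycs, 0.630 for Atp5k, 1.14 for Ndufa11, 0.829 for Atp5g3 and 0.676 for Cox8a, but 0.244 for Cox7a1 and 0.0726 for Cox8b.
Cycs (chr6:50566570-50566819, minus strand): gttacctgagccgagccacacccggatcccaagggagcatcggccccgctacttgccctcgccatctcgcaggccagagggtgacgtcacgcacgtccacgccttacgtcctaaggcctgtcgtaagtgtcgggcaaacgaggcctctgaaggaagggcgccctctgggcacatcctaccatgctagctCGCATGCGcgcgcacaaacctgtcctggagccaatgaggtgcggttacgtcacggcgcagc
Atp5k (chr5:108434400-108434649, minus strand): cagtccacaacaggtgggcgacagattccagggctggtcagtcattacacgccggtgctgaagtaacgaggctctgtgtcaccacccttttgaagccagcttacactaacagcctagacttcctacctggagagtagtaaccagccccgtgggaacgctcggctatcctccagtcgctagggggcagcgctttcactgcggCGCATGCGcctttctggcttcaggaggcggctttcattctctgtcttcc
Ndufa11 (chr17:56717512-56717761, plus strand): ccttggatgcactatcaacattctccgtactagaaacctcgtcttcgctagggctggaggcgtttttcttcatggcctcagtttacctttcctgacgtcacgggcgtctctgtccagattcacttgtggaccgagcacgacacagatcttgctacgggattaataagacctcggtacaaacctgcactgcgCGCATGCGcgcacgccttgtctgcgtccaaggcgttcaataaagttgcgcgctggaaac
Atp5g3 (chr2:73911327-73911576, minus strand): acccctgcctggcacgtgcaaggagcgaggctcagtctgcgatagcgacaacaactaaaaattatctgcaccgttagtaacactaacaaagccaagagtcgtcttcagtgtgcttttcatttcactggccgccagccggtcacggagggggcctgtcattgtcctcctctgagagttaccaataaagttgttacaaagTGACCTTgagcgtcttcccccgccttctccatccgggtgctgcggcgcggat
Cox8a (chr19:7217617-7217866, minus strand): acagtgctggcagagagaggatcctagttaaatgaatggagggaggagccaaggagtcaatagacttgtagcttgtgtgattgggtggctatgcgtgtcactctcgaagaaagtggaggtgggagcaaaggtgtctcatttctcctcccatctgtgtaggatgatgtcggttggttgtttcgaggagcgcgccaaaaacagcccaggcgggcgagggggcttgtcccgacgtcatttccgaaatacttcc
Cox7a1 (chr7:30183921-30184170, plus strand): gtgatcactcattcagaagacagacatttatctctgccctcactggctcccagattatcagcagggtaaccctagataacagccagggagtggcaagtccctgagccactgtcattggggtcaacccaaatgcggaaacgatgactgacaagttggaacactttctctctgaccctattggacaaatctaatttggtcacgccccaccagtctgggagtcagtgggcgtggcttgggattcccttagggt
Cox8b (chr7:140900447-140900696, minus strand): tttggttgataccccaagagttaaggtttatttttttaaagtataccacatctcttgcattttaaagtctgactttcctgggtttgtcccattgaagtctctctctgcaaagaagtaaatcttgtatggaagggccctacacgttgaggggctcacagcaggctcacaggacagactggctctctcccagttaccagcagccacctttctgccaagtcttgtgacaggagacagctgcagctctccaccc
A peak reached into the printed stretch in 24 of 24 libraries for Cycs, Ndufa11 and Atp5g3, in 20 for Cox7a1, in 8 for Atp5k, in 2 for Cox8a and in 0 for Cox8b. At Atp5k and Cox8a, the mark thus lay mainly past the start, inside the gene.

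The strength of these promoters within a library differed by day. The median rank of the best peak over the 89 entries was 5357, 5019 and 5219 in the WT libraries of day 0 and 2703, 2488 and 2328 in those of day 6. In DKO it was 5271, 4249 and 5182 at day 0 and 1730, 1436 and 1574 at day 6. In both genotypes the ranges of days 0 and 6 lay apart, and at day 6 those of WT and DKO did as well. The group means in WT were 5198 ± 169.9 (SD, n = 3), 4409 ± 269.9, 2506 ± 188 and 2583 ± 324 for days 0, 3, 6 and 9. In DKO they were 4901 ± 566, 3973 ± 38.1, 1580 ± 147 and 2211 ± 201. Over the 11172 protein-coding genes with a peak in every library, the median rank stayed between 5430 and 6848 in all 24 libraries. The ratio of that median to the median of the respiratory genes was 1.27 ± 0.059 in WT and 1.28 ± 0.021 in DKO at day 0, and 2.53 ± 0.113 and 4.16 ± 0.283 at day 6. By day 9 the ratio was 2.51 ± 0.298 for WT and 2.83 ± 0.202 for DKO.

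Counts in the top of the lists ran the same way. Among the 1000 strongest peaks of a library, the best peaks of 8.33 ± 2.08 respiratory genes were found in WT at day 0, of 23.3 ± 0.577 at day 6 and of 18.3 ± 4.04 at day 9. In DKO these counts were 9.67 ± 0.577, 32 ± 5.57 and 24.3 ± 3.06. Of all genes with a peak in every library, 9.26% to 11.3% had their best peak there, over the 24 libraries. The day 0 counts of the respiratory genes lay near that share. The DKO lists of day 6 were shorter, and as a percentage of the list length the median rank at day 6 was 2.46 ± 0.226 in WT and 2.54 ± 0.689 in DKO, so on that scale the genotypes overlapped. Over all genes with a peak in every library it was 6.22 ± 0.351 in WT and 10.6 ± 2.93 in DKO.

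**Figure D1:**
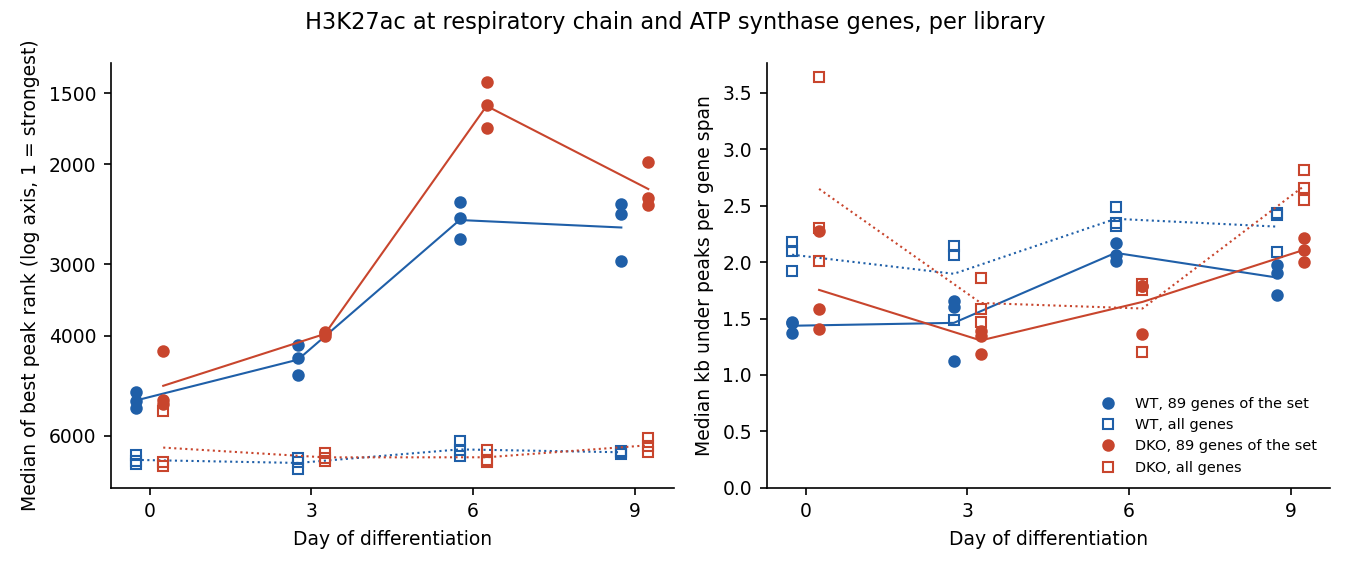
Median best peak rank (left, log axis, inverted so that stronger peaks are higher) and median kb under peaks (right) in each library against the day of differentiation, with filled circles for the 89 respiratory genes and open squares for all genes with a peak in 24 of 24 libraries, blue for WT, red for DKO, and lines through the group means. In rank, the respiratory genes lie between 4249 and 5357 at day 0 and reach 1436 to 1730 in DKO at day 6, while all genes stay between 5430 and 6848.

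The median kb under peaks of the respiratory genes divided by that of all genes with a peak in every library was 0.696 ± 0.018 in WT and 0.671 ± 0.040 in DKO at day 0. The ratio reached 0.873 ± 0.0070 in WT and 1.05 ± 0.075 in DKO at day 6, and 0.806 ± 0.021 and 0.788 ± 0.0038 at day 9. At day 6 the medians themselves were 2.08 ± 0.083 kb in WT and 1.65 ± 0.247 kb in DKO.

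Every complex had its best median rank of the time course at day 6 or day 9 in both genotypes. For the 7 core subunits of complex I, which carry its electron path, the median rank was 3370 ± 682 in WT at day 0 and 1008 ± 326 at day 6. For its 29 accessory subunits it was 5269 ± 822 and 2516 ± 387. Complex III had the strongest peaks of any multi-subunit group in DKO at day 6, with a median rank of 732 ± 259.9 compared with 1614 ± 609 in WT, and the libraries ranged from 464 to 983 and from 917 to 2045, so they overlapped. The 14 complex IV entries with a peak in every library had a median rank of 4601 ± 836 in WT at day 9, and 2163.5 ± 285 in DKO, where the library ranges (3681.5 to 5314.5 and 1936.5 to 2484) lay apart. The difference between these medians was not tested. Gene by gene, limma called 1 of 18 tested complex IV genes by rank at that day, Cox4i2, which is not among the 14. The median log2 difference of the 18 was 0.42. Complex I assembly factors, which help build the complex but are not part of it, had weaker peaks, with a median rank of 8257 ± 2067 in WT at day 0 and 4474 ± 714 at day 6. The ATP synthase started from stronger peaks than the accessory subunits of complex I, at 3874 ± 286 in WT at day 0, and reached 2176.5 ± 241 at day 9.

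**Figure D2:**
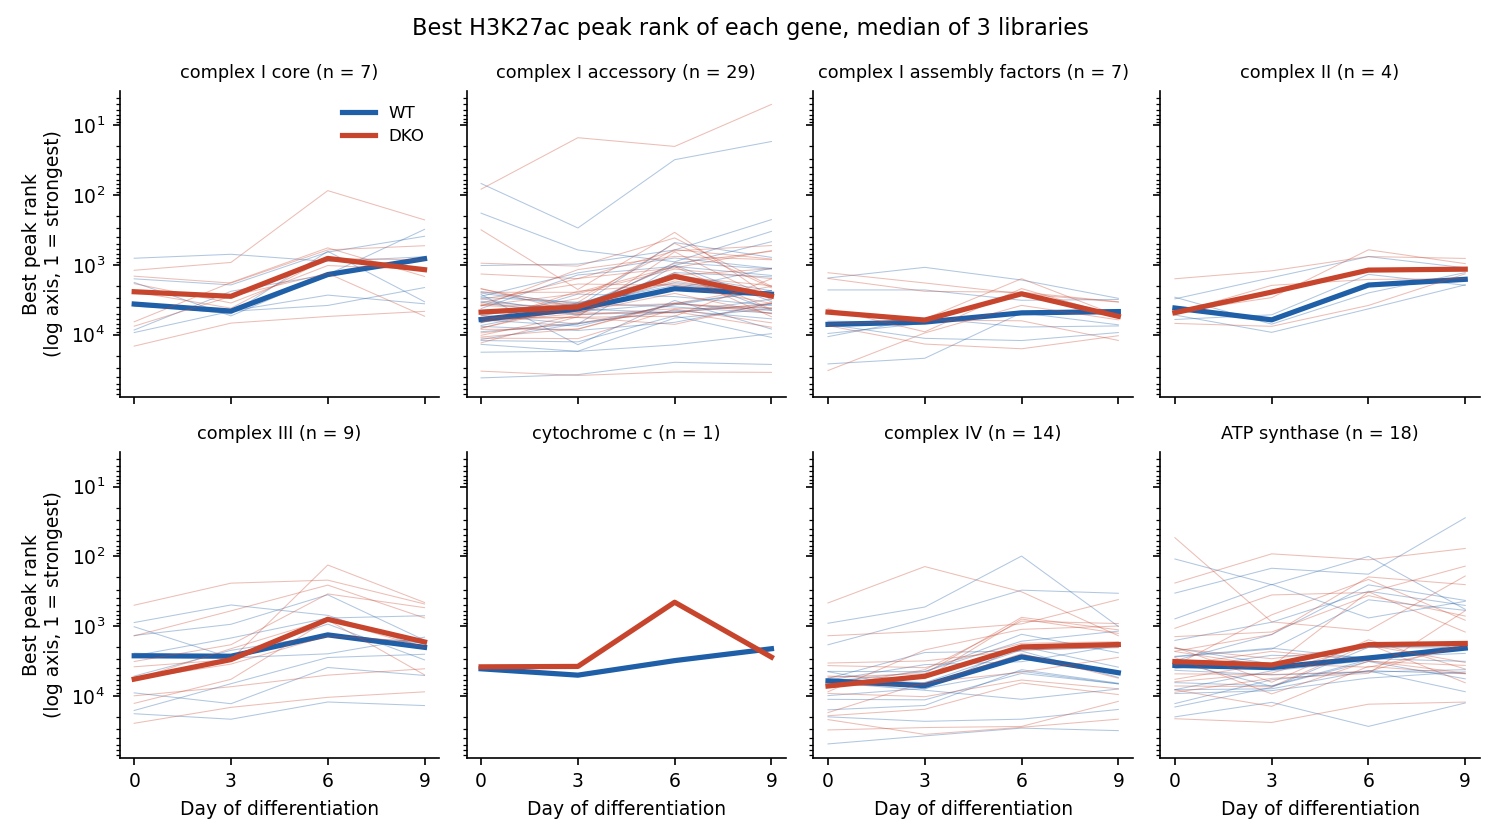
Best peak rank (log axis, inverted, 1 is the strongest) against day for each gene with a peak in 24 of 24 libraries (thin lines, median of 3 libraries) and the median of the genes (thick lines), by complex, in WT (blue) and DKO (red). For complex III at day 6, the mean of the 3 library medians was 1614 in WT and 732 in DKO. The thick lines are medians over genes and can differ from these values.

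Single genes differed widely. By median rank over the 24 libraries, the strongest was Ndufb3, a membrane-arm accessory subunit of complex I, at 28, whose start lies within 1 kb of that of Fam126b on the other strand. Next came Atp5f1 (subunit b of the stalk of the ATP synthase) at 144.5, Atp5l (subunit g) at 321.5, Atp5c1 (the rotating gamma subunit) at 470.5 and Uqcrh (the hinge protein of complex III) at 497. Of these, all but Atp5l had an opposite-strand start within 1 kb. The weakest among genes with a peak in every library were Ndufa1 (complex I, on the X chromosome) at 34364.5, Cox7a1 at 31084 and Ndufa4l2, a hypoxia-induced relative of Ndufa4, at 22463.5. Uqcrfs1, the Rieske iron-sulphur protein of complex III, stood at 14463.5 and Atp5s, the gene of ATP synthase factor B, at 13134.5.

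Whether day 9 differed from day 0 was tested per gene with limma over 15204 genes that had a peak in at least 3 libraries, which included 94 of the 96 entries. Differences are given on a log2 scale with their standard error and a Benjamini-Hochberg adjusted p, called at 0.05, and for ranks a positive value means a stronger peak. In WT, 24 of 94 respiratory genes had a stronger best peak at day 9 and 1 a weaker one, against 8.75% and 9.31% of all tested genes. In DKO, 34 were stronger and 2 weaker, against 10.4% and 14.2% of all. The median difference of the 94 was 0.73 in WT and 1.02 in DKO, compared with 0.04 and −0.05 for all tested genes, and it was above 0 for 70 and for 75 of them. Calls depended on the number of libraries: leaving out replicate 1, 2 or 3 of every group gave 13, 15 and 13 calls in WT and 16, 26 and 25 in DKO. In the same settings, 775, 846 and 919 of 14900 to 14973 tested genes were stronger in WT and 830, 1487 and 944 in DKO. Without DKO day 0 replicate 2, DKO gave 29 calls among the respiratory genes.

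Of the genes stronger at day 9, 15 were called in both genotypes, which is 62.5% of the 24 in WT and 44.1% of the 34 in DKO. They came from all the multi-subunit complexes except complex II: Ndufv1, Ndufa5, Ndufa6, Ndufa11, Ndufb5, Ndufc2 and the assembly factor Ndufaf4 of complex I, Cyc1 and Uqcrb of complex III, Cox5b, Cox6a1, Cox6c and Cox8a of complex IV, and Atp5j and Atp5k of the ATP synthase. A call in one genotype and not in the other does not show a difference between them; that test is given further on.

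Atp5k, the subunit e gene that helps the ATP synthase form dimers, had the largest change in DKO. Its rank was 14406, 11917 and 32498 in WT at day 0 and 1867, 2180 and 1202 at day 9. In DKO it was 10554, 8062 and 8879 at day 0 and 531, 601 and 747 at day 9. All libraries of day 9 were stronger than all of day 0, and the log2 difference was 3.38 ± 0.61 in WT (limma, adjusted p = 4.1e-05) and 3.88 ± 0.61 in DKO (adjusted p = 2.0e-06). Ndufa11, an accessory subunit near the junction of the arms of complex I, stood at 8493, 7180 and 7359 in WT at day 0 and at 640, 779 and 841 at day 9. In DKO it already stood at 2339, 3888 and 4117 at day 0 and reached 842, 1397 and 743. Again the days did not overlap, with a difference of 3.35 ± 0.61 in WT (adjusted p = 4.2e-05) and 1.81 ± 0.61 in DKO (adjusted p = 0.023). Ndufb5, of the membrane arm of complex I, stood at 5255, 8208 and 2863 in WT at day 0 and at 373, 464 and 2546 at day 9, a difference of 2.71 ± 0.65 (adjusted p = 0.0017), and in DKO the difference was 3.00 ± 0.65 (adjusted p = 0.00034).

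Complex I subunits, the largest part of the set, held calls in both genotypes. In WT, 2 of 7 core subunits were stronger at day 9, among them Ndufv1 (1.71 ± 0.46), the subunit that receives electrons from NADH. In DKO, 3 of 7 were: Ndufs3 (2.08 ± 0.80), Ndufs7 (2.0 ± 0.77) and Ndufv1 (1.48 ± 0.46). Of the 29 accessory subunits, 6 were stronger and 1 weaker in WT, and 10 were stronger and 1 weaker in DKO. Ndufb3 and Ndufa6 were among the DKO calls, with 3.79 ± 1.39 (adjusted p = 0.039) and 2.93 ± 0.68 (adjusted p = 0.00085). Ndufb3 was within the first 124 peaks in WT at day 0 and ranked 5, 5 and 10 in DKO at day 9, so a large log2 change there is a move among the strongest peaks. Ndufb9, of the membrane arm, was the exception in DKO: it stood at 249, 1396 and 314 at day 0 and at 1949, 2952 and 4330 at day 9, without overlap, a difference of −2.61 ± 0.81 (adjusted p = 0.013). In WT the same gene had a difference of −1.03 ± 0.81 that did not pass (adjusted p = 0.42).

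The remaining complexes held calls as well. Of 4 complex II genes, Sdha, which binds the flavin, was stronger in WT at day 9 (2.51 ± 0.72), and Sdhd (2.80 ± 0.62) and Sdhb (2.08 ± 0.55) were in DKO. Of 9 complex III genes, 3 were stronger in WT: Cyc1, the haem-carrying cytochrome c1 (2.61 ± 0.54), the core protein gene Uqcrc1 (2.47 ± 0.76) and Uqcrb (1.68 ± 0.57). In DKO 6 of 9 were, with Uqcr10 first (3.40 ± 0.81), followed by Uqcrc2, Uqcrb, Uqcrfs1, Cyc1 and Uqcrq. Of 18 tested complex IV genes, 5 were stronger in WT and 8 in DKO. Ndufa4, a gene named for complex I whose product belongs to complex IV, had a difference of 3.14 ± 0.81 in WT, and Cox7c, Cox8a, Cox5b and Cox4i1 had differences of 2.98 ± 0.63, 2.78 ± 0.61, 2.54 ± 0.67 and 2.28 ± 0.43 in DKO. Of 18 ATP synthase genes, 6 were stronger in WT, led by Atp5f1 (4.76 ± 1.09), Atp5k and Atp5j (2.77 ± 0.82), and 4 in DKO: Atp5k, Atp5j (2.40 ± 0.82), Atp5e (1.54 ± 0.52) and Atp5g1 (1.28 ± 0.48). Of further genes taken to represent their complexes, Atp5b, the catalytic beta subunit of the ATP synthase, was stronger in WT (2.45 ± 0.77), while Ndufs1 of complex I, Cox5a of complex IV, Atp5a1 of the ATP synthase and Cycs passed in neither genotype, with differences from −0.04 for Atp5a1 in WT to 1.39 ± 0.85 for Ndufs1 in DKO. Cox6a2 counts as weaker in DKO (−0.91 ± 0.29), but it had no peak at day 9, where the length of the list plus 1 stands in for its rank.

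**Figure D3:**
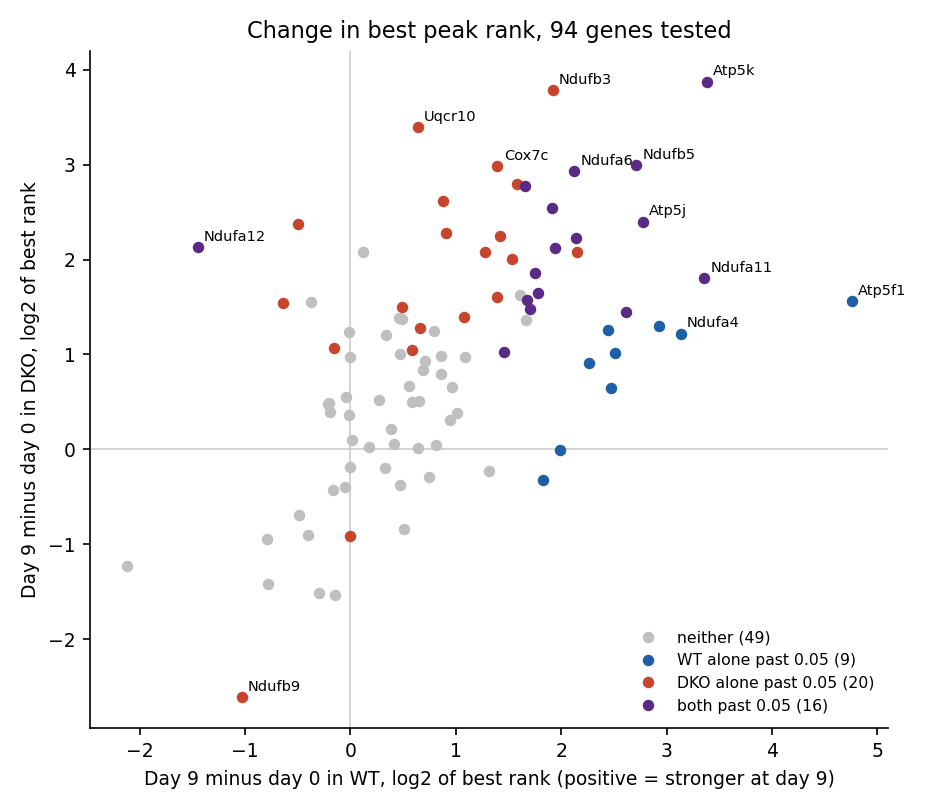
Log2 difference in best peak rank between day 9 and day 0 for the 94 tested respiratory genes, WT on the x axis and DKO on the y axis, positive values meaning a stronger peak at day 9. Of the 94, 16 passed adjusted p 0.05 in both genotypes, 9 in WT alone, 20 in DKO alone and 49 in neither, and Ndufa12 is the gene called with opposite signs.

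By kb under peaks, 16 of 94 genes were higher and 1 lower at day 9 than at day 0 in WT, against 13.7% and 8.79% of all tested genes. In DKO, 20 were higher and 4 lower, against 15.4% and 14%. The median difference was 0.22 in WT and 0.21 in DKO, compared with 0.09 and 0.01 over all tested genes. The count in DKO was 43 without DKO day 0 replicate 2, whose wide peaks add length at day 0, and 7, 29 and 13 without replicates 1, 2 and 3. In WT it was 7, 9 and 7 without them. Of the 43 in DKO, 42 were higher and 1 lower, against 3821 and 1474 of 15164 tested genes. The counts with all libraries lay nearer to the shares among all genes than the counts by rank did.

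The lengths of 10 genes grew in both genotypes: Atp5b, Atp5g3, Cox6b1, Cox8a, Cycs, Ndufb3, Ndufs5, Sdhd, Uqcrfs1 and Uqcrq. At Ndufb3 the kb under peaks were 1.31, 1.37 and 1.48 in WT at day 0 and 2.31, 3.62 and 3.38 at day 9, and 1.46, 2.22 and 1.64 in DKO at day 0 and 5.49, 4.21 and 4.77 at day 9. Every library of day 9 lay above every library of day 0 of its genotype, and the log2 difference was 0.91 ± 0.19 in WT (adjusted p = 0.00077) and 1.24 ± 0.19 in DKO (adjusted p = 1.9e-05). At Cox8a, the widespread form of the smallest complex IV subunit, the kb were 1.09, 0.910 and 0.753 in WT at day 0 and 1.63, 2.56 and 1.65 at day 9, a difference of 0.77 ± 0.21 (adjusted p = 0.0085). The DKO libraries held 0.693, 1.56 and 1.17 kb at day 0 and 2.68, 3.35 and 3.13 kb at day 9, a difference of 1.15 ± 0.21 (adjusted p = 0.00016), again without overlap. Atp5g3, one of the 3 genes for the proton-carrying c subunit, had differences of 0.76 ± 0.17 and 0.77 ± 0.17, and its relatives Atp5g1 and Atp5g2 did not pass. In WT, Ndufs4 had the largest difference, 1.00 ± 0.19 (adjusted p = 0.00033), from 0.917, 1.00 and 1.08 kb to 2.28, 2.48 and 2.75 kb. Uqcrfs1 (0.83 ± 0.16), Cox6b1 (0.67 ± 0.16), Atp5c1 (0.65 ± 0.20), Ndufv3 (0.64 ± 0.22) and Atp5a1 (0.59 ± 0.15), the latter a catalytic-head subunit, were higher as well.

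Ndufs8, a core subunit that carries iron-sulphur clusters of complex I, ran the other way in both genotypes. Its span held 4.83, 4.90 and 5.46 kb under peaks in WT at day 0 and 2.33, 2.70 and 2.92 kb at day 9, and 5.83, 7.58 and 5.87 kb in DKO at day 0 and 3.8, 2.89 and 3.01 kb at day 9. The days did not overlap, and the log2 difference was −0.82 ± 0.22 in WT (adjusted p = 0.0081) and −0.89 ± 0.22 in DKO (adjusted p = 0.0032). Both values turned under another window: the DKO value was 0.85 with peaks set to 250 bp either side of their summits, and the WT value was 0.02 within 1 kb of the 5′ end. Ndufaf2 (−0.57 ± 0.18), Ndufa2 (−0.51 ± 0.17) and Ndufc1 (−0.38 ± 0.14) were lower in DKO.

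By kb at day 9, 2 of 94 respiratory genes were higher in DKO and 0 lower, against 1.68% and 0.164% of all tested genes. Both are forms of complex IV subunits restricted to some tissues. Beside them stand the marker values given above for that day: adipocyte, brown adipocyte and leukocyte sums that were higher in every DKO library than in every WT library, and Acta1 with a peak in all 3 DKO libraries. The DKO peaks of day 9 also covered more of the genome (61.2 to 68.8 Mb, against 48.2 to 59.6 Mb in WT). Over all tested genes the median kb difference at that day was 0.15. The part of these shifts in both results was not tested. Cox4i2, the alternative form of the regulatory subunit 4, had no peak in the 3 WT and 3 DKO libraries of day 6. At day 9 it had 1.10, 1.16 and 1.33 kb under peaks in DKO and 0, 0 and 0.261 kb in WT. The log2 difference between genotypes at day 9 was 1.56 ± 0.16 (limma on log2(kb + 0.5), adjusted p = 5.1e-06). It passed in all 14 alternative settings that could be run, with values from 0.887 to 3.07, each on the scale of its setting, but it was not tested when each list was limited to its 20000 strongest peaks, since it then had a peak in too few libraries. Its peaks were faint: the best ranks in DKO at day 9 were 37233, 40699 and 36242, with a fold enrichment of 6.64 to 7.73. They lay at 3 places in all 3 DKO libraries, with summits 51 to 424 bp past the start, in intron sequence 4454 to 4540 bp past it (chr2:152758506-152758869 in replicate 1, mm10) and in intron sequence 10343 to 10565 bp past it (chr2:152764425-152764761). By rank the difference was 1.35 ± 0.27 (adjusted p = 0.0047), and it did not pass without replicate 1, 2 or 3 (adjusted p up to 0.345).

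Cox8b, the form of subunit 8 known from brown fat and muscle, had 0.830, 0.597 and 0.668 kb in WT at day 6 and 0.733, 0.647 and 0.577 kb in DKO, which overlapped. At day 9 it had 1.12, 0.965 and 1.17 kb in DKO and 0.312, 0 and 0 kb in WT, without overlap, a difference of 1.43 ± 0.19 (adjusted p = 0.00014). The difference did not pass with peaks of −log10 q of at least 5, within 1 kb of the 5′ end, or without replicate 3. Its peaks were faint as well: the best ranks at day 9 were 107124, 54249 and 37110 in DKO and 51558 in WT replicate 1. Their fold enrichment was 2.95, 5.37 and 6.53 in DKO and 5.42 in WT. By rank the genotypes thus overlapped, and Cox8b did not pass. All 6 libraries of day 0 were at 0. The peaks lay mainly 1.7 to 2.6 kb upstream of the start, as at chr7:140902263-140903169 in DKO day 9 replicate 1, which is why none reached into the printed promoter stretch.

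Cox7a1 showed the same order but did not pass. Its kb at day 9 were 0.763, 0.789 and 0.870 in WT and 1.22, 1.30 and 1.04 in DKO, without overlap, and the difference of 0.36 ± 0.21 had an adjusted p of 0.52. By rank, Cox7a1 was stronger at day 9 than at day 0 in DKO (1.04 ± 0.36, adjusted p = 0.028), at 11963, 10049 and 16470. Cox6a2 had a short peak in all 3 DKO libraries of day 3 (0.222, 0.292 and 0.186 kb) and in no WT library, and the difference missed the threshold (0.55 ± 0.12, adjusted p = 0.055). The widespread partners Cox4i1, Cox6a1, Cox7a2 and Cox8a did not pass between genotypes at any day by kb, and Cox8a at day 9 had a difference of 0.55 ± 0.21 (adjusted p = 0.23). The other widespread or alternative members of such pairs, Cox6b1, Cox7a2l, Cox7b and Ndufa4, did not pass between genotypes either.

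**Figure D4:**
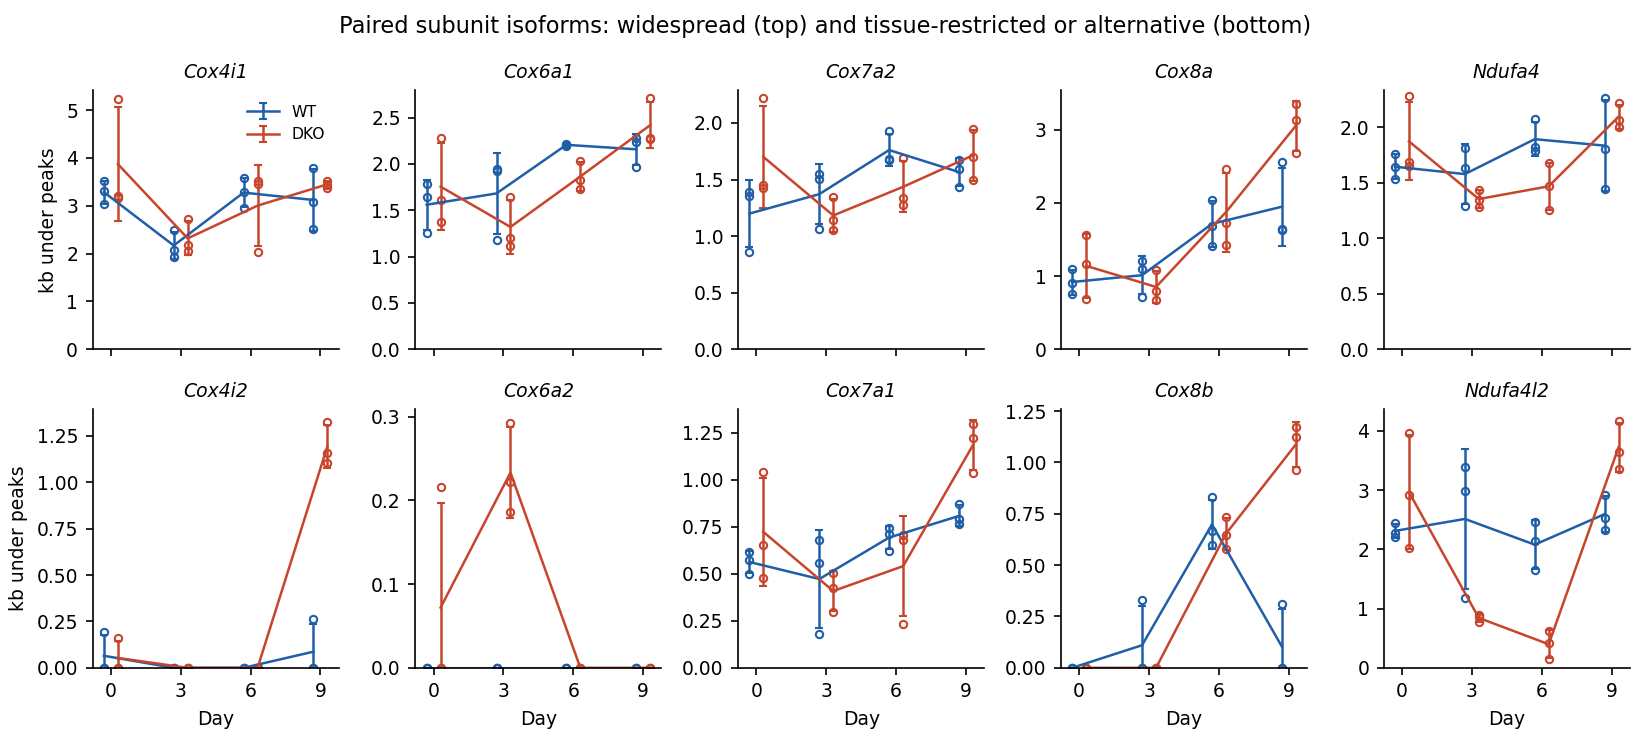
Kb under peaks against day for widespread subunits (top) and their tissue-restricted or alternative partners (bottom), in WT (blue) and DKO (red), with a point per library and the mean with SD (n = 3). Cox4i2 and Cox8b in DKO at day 9 lie between 0.965 and 1.33 kb, above WT libraries of 0 to 0.312 kb, and the WT points of Ndufa4l2 at day 6 (1.65 to 2.46 kb) lie above those of DKO (0.155 to 0.627 kb).

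Ndufa4l2 ran in the opposite direction at day 6. This gene, known as a hypoxia target, had 1.65, 2.13 and 2.46 kb in WT at day 6 and 0.413, 0.627 and 0.155 kb in DKO, without overlap, a difference of −1.54 ± 0.25 (adjusted p = 0.00017). With the median of all genes subtracted per library it still passed. It did not pass with the 20000 strongest peaks or within 1 kb of the 5′ end, where this gene has no peak in 5 libraries. At day 3 the difference of −1.08 ± 0.25 did not pass (adjusted p = 0.073), and at day 9 the DKO libraries (4.17, 3.65 and 3.35 kb) lay above those of WT (2.33, 2.92 and 2.53 kb) with a difference of 0.45 ± 0.25 that did not pass either (adjusted p = 0.49).

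By kb at day 6, 11 of 94 were lower in DKO and 0 higher, against 39.6% and 0.0855% of all tested genes. The median difference was −0.23, compared with −0.42 over all tested genes. Relative to that shift, the direction of the group turned: with the median of all genes subtracted from each library, 31 were higher and 2 lower in DKO, with a median of 0.25, against 11.5% and 16.5% of all tested genes. Besides Ndufa4l2, the genes lower as deposited included the long Atp5o entry (−0.86 ± 0.25), Cox6c (−0.77 ± 0.23), Atp5d (−0.71 ± 0.26), Ndufb7 (−0.60 ± 0.16), Ndufs4 (−0.58 ± 0.19), Uqcr11 (−0.54 ± 0.20), Ndufa5 (−0.49 ± 0.18), Ndufv2 (−0.44 ± 0.16) and Uqcr10 (−0.32 ± 0.13), of which Ndufv2 and Uqcr10 were above 0 after the subtraction. The count was 28 without DKO day 0 replicate 2, 18 without WT day 3 replicate 3, 2 without replicate 1 and 1 without replicate 3. Among all tested genes, 7779 of 15164, 6557 of 15191, 3483 of 14973 and 878 of 14952 were lower in these settings.

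By rank at day 6, 5 of 94 were stronger in DKO and 1 weaker, against 0.855% and 0.862% of all tested genes, with a median difference of 0.47 compared with 0.03. With ranks as a percentage of the list, the median was −0.21 compared with −0.66 over all tested genes, and 2 were stronger and 5 weaker, against 0.27% and 17.8% of all. No call remained without replicate 1 or without replicate 3, and 2 without replicate 2. The count thus rests on the scale and on the number of libraries.

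Cycs, the gene of cytochrome c, which carries electrons from complex III to complex IV, ranked 3118, 1927 and 5902 in WT at day 6 and 415, 521 and 454 in DKO. Uqcrc2, a core protein of complex III, ranked 2262, 2634 and 2491 in WT and 354, 345 and 321 in DKO. In both the genotypes lay far apart, with differences of 2.83 ± 0.57 (limma, adjusted p = 0.0038) and 2.85 ± 0.62 (adjusted p = 0.0077), and as a percentage of the list they were 2.15 and 2.17 and still passed. Neither passed without replicate 1 or without replicate 3, and Uqcrc2 did not without replicate 2 either. Atp5j2, subunit f of the ATP synthase, ranked 2019, 1748 and 2699 in WT and 322, 605 and 263 in DKO (2.51 ± 0.66, adjusted p = 0.032). Ndufab1, the acyl carrier protein of mitochondria and a part of complex I, ranked 13167, 13968 and 15888 in WT and 4305, 6114 and 3890 in DKO (1.61 ± 0.40, adjusted p = 0.024). Atp5l was the exception and ranked 118, 100 and 90 in WT and 540, 1949 and 1155 in DKO (−3.39 ± 0.94, adjusted p = 0.046), a call that did not pass within 1 kb of the 5′ end (adjusted p = 0.051), with a replicate block (adjusted p = 0.053) or without replicate 1, 2 or 3 (adjusted p of 0.165 to 0.270). None of these pairs of groups overlapped. At day 9 the ranks of Cycs overlapped between genotypes (1016 to 4761 in WT and 1740 to 2816 in DKO).

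**Figure D5:**
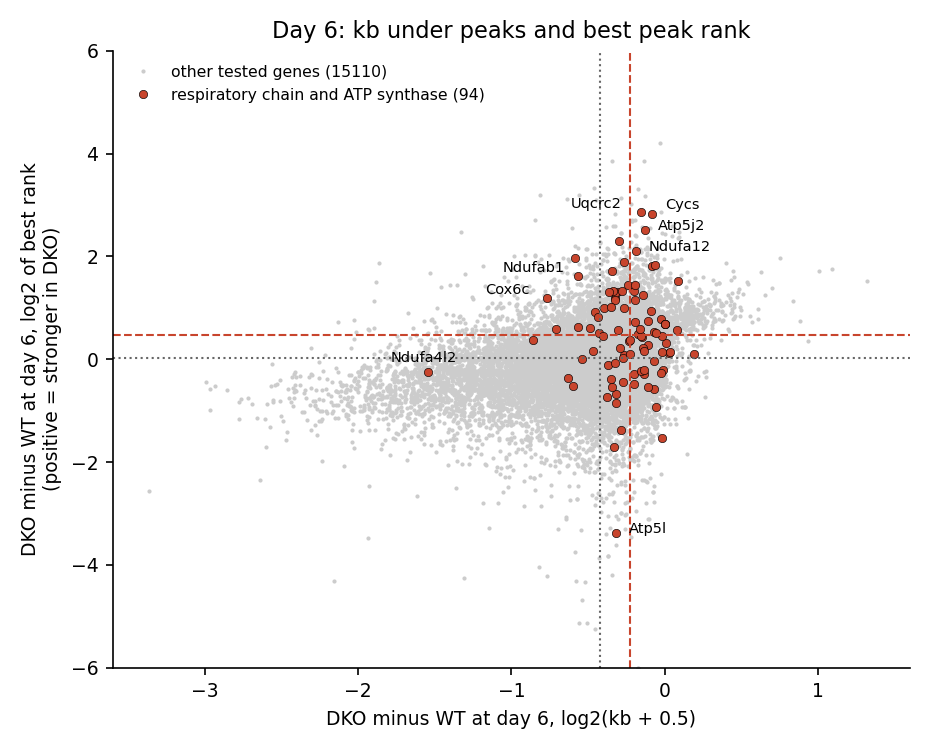
DKO minus WT at day 6 for each tested gene, with the log2 difference in kb under peaks on the x axis and that in best peak rank on the y axis (positive is stronger in DKO), grey for other genes and red for the 94 respiratory genes; 2 other genes lie outside the axes. The red points centre at −0.23 in kb and 0.47 in rank, and all tested genes at −0.42 and 0.03.

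Ndufa12, an accessory subunit of complex I, was the gene whose rank changed differently over time in the genotypes. At day 0 it ranked 1807, 2650 and 4574 in WT and 20851, 13064 and 10522 in DKO, a difference of −2.34 ± 0.53 (limma, adjusted p = 0.0068). At day 6 the order was the reverse, with 4856, 3223 and 2093 in WT and 1500, 649 and 419 in DKO (2.11 ± 0.53, adjusted p = 0.025). At day 9 it ranked 8668, 6189 and 8288 in WT and 3572, 3153 and 3049 in DKO, also without overlap, but the difference of 1.23 ± 0.53 did not pass (adjusted p = 0.32). The change from day 0 to day 9 was −1.45 ± 0.53 in WT and 2.13 ± 0.53 in DKO, and differed by 3.58 ± 0.75 (adjusted p = 0.014). The best peak in WT at day 0 had its summit in an exon, 106 to 108 bp past the start. In all 6 libraries of day 6 and in DKO at day 9 the summit of the best peak lay in an intron, 431 to 463 bp past it, and in the 3 DKO libraries of day 0 it lay at 93, 142 and 419 bp. The difference in change did not pass without replicate 1, 2 or 3 (adjusted p up to 0.258). The day 6 difference did not pass in these settings either, nor with ranks as a percentage of the list. That of day 0 did not pass without replicate 1 or without replicate 2.

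That test of the change from day 0 to day 9 called 1 gene by rank, Ndufa12, against 0.0921% of all tested genes in that direction, and 0 in the other, against 0.21%. By kb it called 2, Cox4i2 (1.58 ± 0.23, adjusted p = 0.0011) and Cox8b (1.43 ± 0.26, adjusted p = 0.013), against 0.263% in that direction, and 0 in the other, against 0.224%. Without replicate 1 or replicate 2 neither of the last pair passed, and without replicate 3 only 1 gene did.

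On the other days, few genes passed between genotypes. At day 0, Ndufc1, a small accessory subunit of complex I, was the 1 gene called by kb, higher in DKO, against 2.58% of all tested genes, and 0 were lower, against 0.257%. Its kb were 0.929, 1.10 and 0.819 in WT and 1.36, 1.96 and 1.52 in DKO, a difference of 0.54 ± 0.14 (adjusted p = 0.044) that did not pass without DKO day 0 replicate 2. By rank at day 0, 0 were stronger, against 2.91%, and 1 weaker, Ndufa12, against 0.684%. At day 3, limma called 0 of 94 by kb, against 0.0132% higher and 0.263% lower, and 0 by rank, against 0.46% stronger and 0.342% weaker. At an unadjusted p under 0.05, 2 were higher and 4 lower by kb and 12 stronger and 4 weaker by rank at that day. The share of all tested genes at that threshold was not counted, so these numbers do not set the respiratory genes apart. At day 9, 2 were higher by kb, Cox4i2 and Cox8b, against 1.68%, and 0 lower, against 0.164%. By rank 1 was stronger, Cox4i2, against 0.572%, and 0 weaker, against 0.217%. These counts by rank depended on the measure of strength: with peaks ordered by fold enrichment, 10 genes passed at day 0 (6 stronger and 4 weaker, against 6.2% and 2.75% of all tested genes), 9 at day 3 (7 and 2, against 3.51% and 3.25%) and 9 at day 9 (6 and 3, against 3.57% and 2.76%).

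Genes of related pathways were set beside the respiratory genes, and their counts can be read against the shares of all tested genes that were stronger and weaker, 8.75% and 9.31% in WT and 10.4% and 14.2% in DKO. Of 13 genes of the tricarboxylic acid cycle, which supplies the NADH and succinate, 3 were stronger by rank at day 9 than at day 0 in WT and 4 in DKO, with medians of 0.91 and 0.59. Idh3a, a subunit of the NAD-dependent isocitrate dehydrogenase, had a difference of 3.19 ± 0.49 in DKO, and Cs, the citrate synthase, one of 2.67 ± 0.57 in WT and 2.05 ± 0.57 in DKO. Of 13 regulators of mitochondrial genes, 4 were stronger in WT and 7 stronger and 1 weaker in DKO, with medians of 0.52 and 1.30. Among them were Esrrg, an ERR family receptor (1.78 ± 0.33 in WT and 1.75 ± 0.33 in DKO), Ppara (1.81 ± 0.37 and 2.98 ± 0.37) and the coactivator gene Ppargc1b (1.29 ± 0.43 and 1.61 ± 0.43), while Pprc1 was weaker in DKO (−2.05 ± 0.65). Of 78 mitochondrial ribosome genes, 7 were stronger and 2 weaker in WT and 13 and 1 in DKO, with medians of 0.31 and 0.37. Of 86 tested cytosolic ribosome genes, which are also short and broadly active, 4 were stronger and 3 weaker in WT and 1 and 2 in DKO, with medians of 0.14 and 0.29. The respiratory genes, with medians of 0.73 and 1.02, thus lay above both ribosome lists, and the differences between lists were not tested.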

How the data were processed

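H3K27ac ChIP-seq libraries of WT and DKO cells at 4 days were used, 3 per group. The 16 input libraries were not analysed here. The members and gene lists were chosen with earlier results of these data known. According to the submitters' processing notes, the tools were bcl2fastq 2.17, cutadapt 1.18, BWA 07.17 and MACS2 2.1.1.20160309, with the genome build mm10. Which input served as control of which list is not given in the sources used here. The authors called peaks in each library without pooling. The deposited lists give each peak's positions, a fold (ratio) of enrichment at the summit and its p-value and q-value, both as −log10. Sequencing depth is not in the lists, and their number of peaks, 47448 to 115923, limits the precision.

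From these, kb under peaks and the best rank by −log10 q were taken per gene, over GENCODE protein-coding genes from 5 kb upstream to the end. A gene with no peak received the number of peaks plus 1 as its rank. Values of log2(kb + 0.5) and of −log2(rank) were fitted with limma 3.58.1 in R 4.3.3 (trend and robust) over 8 groups and 24 libraries, for 15204 genes with a peak in at least 3 libraries, with the Benjamini-Hochberg adjustment and a threshold of 0.05. The scripts were tested on simulated data. Named were members past the threshold (up to 10 per direction, measure and comparison), isoforms and their partners, members without a peak in every library, the 5 strongest and 5 weakest, and a representative member of each complex. A member that met this rule is counted but not reported here by name. Same-numbered libraries of a day did not consistently deviate together (r of −0.18 to 0.26 for kb and −0.03 to 0.07 for rank), so no pairing was used. For kb, r exceeded 0.1 in 4 of 12 such pairs, against 2 of 24 pairs of a day with unlike numbers. The alternatives tried were other pseudocounts, a linear scale, stricter peak thresholds, other windows, centring, other rank scales, no filter, left-out libraries and a replicate block.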

Additional observations from a re-analysis of the deposited data

Results flagged for a closer look

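For 3 genes, the change from day 0 to day 9 differed between the genotypes by an interaction test in limma across 15204 genes. The kb under peaks at Cox4i2 changed by 1.58 more on the log2 scale in DKO than in WT, and those at Cox8b by 1.43 more. For both, every DKO library of day 9 lay above every WT library of that day, and the best peaks were faint in every library that held one. At Ndufa12 the best peak rank differed by 3.58 in its change, with WT moving to a weaker and DKO to a stronger rank, and the summit of the best peak moved between an exon and an intron across the libraries. None of the 3 differences passed without replicate 1 or without replicate 2 of every group.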

How the results depend on the processing

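Counts of respiratory genes past the threshold are given here for each comparison, as kb or rank. The number of calls over all tested genes changed with the settings as well, so these counts alone do not set the respiratory genes apart. For the day 9 against day 0 comparisons, every alternative kept more genes higher or stronger than lower or weaker, except WT kb with 250 bp either side of the summits (1 and 1). With a pseudocount of 0.1, kb calls numbered 0 at day 0, 1 at day 3 and 1 for the difference in change. On a linear scale they were 2 at day 0 and 6 at day 9. With −log10 q of at least 5 they were 2, 1 and 1 at days 0, 3 and 9, and 1 for the difference in change. With the 20000 strongest peaks they were 0 at day 6, 1 at day 9, 8 and 8 for day 9 against day 0 in WT and DKO, and 0 for the difference in change. With 250 bp either side of the summits they were 0, 1 and 3 at days 0, 3 and 6, 2 for day 9 against day 0 in WT, and 0 for the difference in change. Within 1 kb of the 5′ end they were 4 and 1 at days 6 and 9, 5 and 1 for day 9 against day 0 in WT and DKO, and 0 for the difference in change, and by rank 0 at day 9. With the median of all tested genes subtracted, kb calls were 1 at day 0, 2 at day 3 and 33 at day 6. For day 9 against day 0 in DKO they were 37. The 1 at day 0 was lower and was not Ndufc1, which stayed higher but did not pass. The 33 were 31 higher and 2 lower, against 11.5% and 16.5% of all tested genes. The 37 were 32 higher and 5 lower, against 3403 and 3228 of 15204. With no filter on genes, kb calls were 0, 1 and 5 at days 0, 3 and 6, and rank calls 1 and 22 at days 3 and 6. The 5 by kb were lower, against 4924 of all 21938 genes. The 22 by rank were 20 stronger and 2 weaker of 96, against 8066 and 760 of all 21938. As a percentage of the list, rank calls were 1 and 7 at days 3 and 6, the latter mostly weaker, and 2 for the difference in change. By fold enrichment they were 10, 9, 13 and 9 at days 0, 3, 6 and 9, and 9 for the difference in change. The cause was not tested.

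Leaving out libraries gave kb calls of 0 to 1 at day 0, 0 to 2 at day 3, 1 to 28 at day 6 and 1 to 4 at day 9, 7 to 24 and 7 to 43 for day 9 against day 0 in WT and DKO, and 0 to 2 for the difference in change. The 28 were lower, against 7779 of 15164 tested genes. The 43 were 42 higher and 1 lower, against 3821 and 1474. By rank the ranges were 0 to 1, 0 to 1, 0 to 7 and 0 to 1, then 13 to 27 and 16 to 35, and 0 to 1. Whether replicate numbers pair the samples is not said. With a replicate block, kb calls were 1, 1, 16 and 2 at days 0, 3, 6 and 9, 18 and 26 for day 9 against day 0 in WT and DKO, and 2 for the difference in change, and rank calls were 1, 0, 5 and 1, then 26 and 36, and 1. Of 125 calls of single genes, 123 stayed past the threshold, and by rank Atp5l at day 6 (adjusted p = 0.053) and Cox8a for day 9 against day 0 in WT (adjusted p = 0.053) did not.

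Of the genes named, the direction turned in 12 cases, all by kb. At day 6 these were Uqcr11 (0.81 with 250 bp either side of the summits), Uqcr10 (0.15) and Ndufv2 (0.042) with the median subtracted, and Cox6c (0.0064 within 1 kb of the 5′ end). For day 9 against day 0 in WT they were Atp5a1 (−0.023 with 250 bp) and Ndufs8 (0.019 within 1 kb). In DKO they were Ndufs8 (0.85) and Sdhd (−0.0084) with 250 bp, Ndufs7 (−0.083) and Ndufa2 (0.089) within 1 kb, and Ndufa7 (−0.022) and Ndufc1 (0.024) with the 20000 strongest peaks. Peak lists without read counts limit how far depth can be separated from the mark, above all at day 6, where the DKO lists are short.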
